A study of Drosophila melanogaster with 51 samples.

Results

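Heat shock and chaperone genes were followed in Drosophila melanogaster larvae that lack, or carry mutant alleles of, subunits of the COP9 signalosome (CSN), which takes the ubiquitin-like Nedd8 off cullin ubiquitin ligases. The genes were chosen by name: every gene of the array whose symbol starts with Hsp, Hsc, CCT, DnaJ, Pfdn or Fkbp. This gave 18 genes of the 4698 named genes, and of the 6187 features in all, that had a value. By their known location 3 of them are mitochondrial (Hsc70-5, Hsp60A and Hsp60B) and 13 cytosolic or nuclear (CCT2, CCT3, CCT5, CCT6, CCT7, CCT8, Pfdn5, Hsp110, DnaJ-1, Hsp26, Hsp27, Fkbp59 and Fkbp39). Fkbp14 is a protein of the endoplasmic reticulum, and DnaJ-60 was assigned to no compartment. The current annotation holds 45 genes with these prefixes, so 27 of them, the stress-inducible Hsp70 genes, Hsp83, Hsc70-4, CCT1 and CCT4 among them, were not analysed here.

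Chaperones bind unfolded polypeptides and let them fold without aggregating. In the mitochondrial matrix an Hsp70 protein pulls imported precursors through the inner membrane and hands them to the Hsp60 chaperonin, a barrel in which they fold. In the cytosol the CCT ring, built of several related subunits, folds actin and tubulin that prefoldin delivers. Small heat shock proteins hold denatured proteins, and in flies Hsp26 and Hsp27 are also switched on during normal development at pulses of the moulting hormone ecdysone. FKBP proteins are prolyl isomerases, several of which work with Hsp90.

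Each of the 51 two-colour arrays compared total RNA of whole mutant larvae with that of age-matched wild-type larvae, at 60, 72 or 96 h after egg deposition. The mutants were csn4null (3, 4 and 4 arrays at the 3 ages), csn5null (5, 4 and 4), csn51 (4, 4 and 5) and csn53 (5, 4 and 5); csn51 and csn53 are mutations of the CSN5 gene. The wild-type extract, whose strain the titles write as w118, recurs under the same number on arrays of different genotypes (it is numbered 1 on all 5 csn5null arrays and on 3 of 4 csn51 arrays at 60 h), and whether one extract served several arrays is not stated. Comparisons of different genotypes may therefore share wild-type RNA, and each is given by its own values. Arrays of 1 group may share it too. The spread between them would then leave out the variation between wild-type extracts, and p would be too small. The descriptions of all arrays but one call them biological replicates.

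Ratios of mutant to wild type are given on the log2 scale and were fitted with limma over all arrays with the dye as a term; a gene is called higher or lower where its Benjamini-Hochberg adjusted p over all features was under 0.05. The deposited values state neither their direction nor the base of their logarithm, which was taken as 2. The direction was set from the deleted genes: the deposited value of CSN4 was above 0 on 11 of 11 csn4null arrays and that of CSN5 on 13 of 13 csn5null arrays, so every sign was turned. Mutant over wild type is thus the likely direction, and if it were the other way every "higher" below would be "lower". After turning, CSN4 was at -2.39, -2.47 and -2.19 in csn4null at the 3 ages, and CSN5 was at -4.45, -2.94 and -2.03 in csn5null. In csn51 and csn53 the CSN5 ratio lay between -0.53 and 0.25 and passed the test in none of the 6 groups.

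Several arrays stood apart. Replicate 3 of csn5null at 72 h and replicate 3 of csn5null at 96 h had CSN5 ratios of only -0.32 and -0.01, against their labels. Replicate 5 of csn5null at 60 h had a CSN5 ratio of -4.78, as its group had, but lay outside the range of the other 4 arrays in 16 of the 18 chaperone genes. Over all entries its correlation r was -0.178 with replicate 1 and 0.0786 with replicate 2. Replicates 1 and 4 of csn51 at 96 h received the lowest weights of their group, 0.128 and 0.39, when arrays were weighted by how closely they fit their group. Replicate 2 of csn53 at 72 h also had the lowest weight of its group, 0.369. Results that rest on these arrays are given with and without them. Because the chaperone values themselves set replicate 5 of csn5null at 60 h apart, 60 h values without it are conditioned on the outcome and are given as a description, with no p. The fit takes 1 spread per gene over all arrays. Calls at 72 and 96 h without the 3 csn5null arrays are therefore conditioned too, and only ratios and counts are described. In whole larvae, fewer cells of a type and less RNA per cell cannot be told apart, and the table holds ratios only, so neither the level of a gene nor the tissue of origin could be read from it.

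Where a chaperone gene was called, it was mostly lower than wild type at 60 h and mostly higher at 96 h. Counted over the 4 genotypes, 72 gene and group pairs were tested at each age. Of these, 5 were higher and 33 lower at 60 h, 4 higher and 16 lower at 72 h, and 34 higher and 3 lower at 96 h. By genotype, 4.54% to 25.3% of all features were higher at 60 h and 3.39% to 24.9% lower. At 72 h the shares were 8.32% to 17.6% higher and 9.44% to 16.9% lower. At 96 h they were 9.47% to 27.0% and 7.79% to 28.1%. The mitochondrial genes gave 0 higher and 6 lower of 12 pairs at 60 h and 7 higher and 0 lower at 96 h. The cytosolic genes gave 1 higher and 27 lower of 52 pairs at 60 h and 21 higher and 2 lower at 96 h. The heat map of fitted ratios shows this turn from low to high in 3 of the 4 genotypes.

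**Figure D1:**
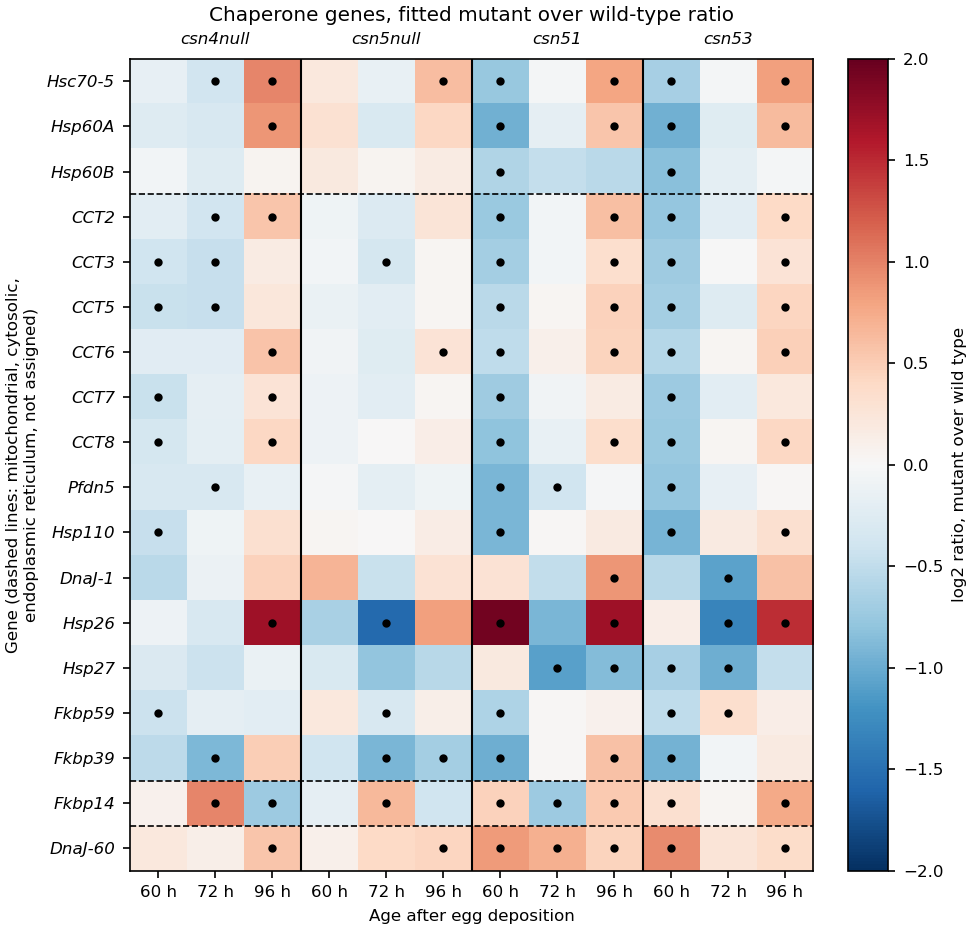
Fitted log2 ratio of mutant over wild type (colour, from -2 to 2) for the 18 chaperone genes (rows) in the 12 genotype and age groups (columns); a black dot marks an adjusted p under 0.05. In csn51 and csn53 the mitochondrial and CCT rows are lower at 60 h, and all of them but Hsp60B and CCT7 are called higher at 96 h.

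In csn51 larvae at 60 h, 3 of the 18 genes were higher and 13 lower, where 24.1% of all 6186 features tested were higher and 22.9% lower. In csn53 at 60 h, 2 were higher and 14 lower, against 25.3% and 24.9% of features. The share of chaperone genes that was lower was thus above that of all features in both alleles, and the median ratio of the 18 genes was -0.65 in csn51 and -0.70 in csn53, with medians of all features of 0.0086 and -0.0023. In csn4null at 60 h none was higher and 6 were lower (9.77% and 8.08% of 5867 features). No gene was called in csn5null at 60 h, where 4.54% of features were higher and 3.39% lower by limma and 3 of the 18 genes had an unadjusted p under 0.05. The 6 calls in csn4null at 60 h went to 0 without its replicate 2, which leaves 2 arrays.

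At 72 h there were fewer calls than at 60 h in csn51 and csn53 and more in csn4null and csn5null; the change in counts was not tested. In csn51, 1 was higher and 3 lower (17.6% and 16.9% of features), and in csn53 also 1 and 3 (15.8% and 14.2%). In csn4null, 1 was higher and 6 lower, against 12.6% and 12.4% of features. In csn5null, 1 was higher and 4 lower, against 8.32% and 9.44% of features. The 5 calls of csn5null became 3 without replicate 1, 3 without replicate 4 and 8 without replicate 3. The 4 calls of csn51 became 2 without its replicate 2, and the 4 of csn53 became 1 without its replicate 2.

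At 96 h the calls were nearly all upward. In csn51, 12 genes were higher and 1 lower, against 27.0% and 28.1% of features. In csn53, 11 were higher and none lower (21.0% and 19.5%). The csn4null larvae had 8 higher and 1 lower (15.1% and 16.3%). The csn5null larvae had 3 higher and 1 lower (9.47% and 7.79%), which became 1 call without replicate 1, 2 or 4. There were 7 calls without the 3 csn5null arrays that stood apart, a count conditioned on the outcome. The median ratio of the 18 genes at 96 h was 0.37 in csn4null, 0.14 in csn5null, 0.45 in csn51 and 0.38 in csn53.

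Hsc70-5 (CG8542) encodes the mitochondrial Hsp70, the motor of protein import. Its ratio on the 4 csn51 arrays at 60 h was -0.88, -0.89, -0.61 and -0.64, and on the 5 csn53 arrays -0.55, -0.73, -0.88, -0.91 and -0.26. At 96 h it was 0.72, 0.90, 0.95, 0.43 and 0.96 in csn51 and 0.75, 0.61, 1.32, 0.32 and 1.12 in csn53. All arrays of both alleles were below 0 at 60 h and above 0 at 96 h, with no overlap. The fitted ratios were -0.75 (SE 0.14, n = 4, adjusted p = 3.07e-05) and -0.66 (SE 0.13, n = 5, adjusted p = 3.09e-05) at 60 h, and 0.79 (adjusted p = 1.21e-06) and 0.82 (adjusted p = 1.10e-06) at 96 h, which is 1.73-fold and 1.77-fold higher than wild type.

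In csn4null larvae at 60 h the Hsc70-5 ratio was -0.0043, -0.44 and -0.03. It was -0.15, -0.45, -0.47 and -0.48 at 72 h but 1.03, 0.72, 1.23 and 0.90 at 96 h. The 96 h arrays lay apart from all earlier ones, and the fit gave 0.97 (SE 0.14, n = 4, adjusted p = 7.21e-07), or 1.96-fold higher. At 72 h the gene was lower by the fit (-0.39, adjusted p = 0.0397), a call lost without replicate 2, 3 or 4, with adjusted p between 0.124 and 0.141. In csn5null larvae at 60 h the values were 0.67, 0.46, 0.46, -0.01 and -0.52. They were -0.14, 0.04, -0.34 and -0.16 at 72 h but 0.67, 0.65, 0.55 and 0.63 at 96 h. Here the 60 h values spread over a wider range than in the other genotypes and overlapped those at 96 h. Only the 96 h group passed the test in csn5null (0.62, SE 0.14, n = 4, adjusted p = 0.00139), and 0.65 was obtained without the 3 csn5null arrays. At 72 h csn51 and csn53 showed ratios of -0.03 and -0.04, neither of them called.

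Hsp60A (CG12101) encodes the matrix chaperonin. Its values at 60 h were -0.89, -1.18, -0.79 and -0.99 in csn51 and -0.69, -1.09, -1.19, -1.21 and -0.62 in csn53. At 96 h they were 0.04, 0.81, 0.74, 0.43 and 0.75 in csn51 and 0.54, 0.33, 1.09, 0.55 and 0.66 in csn53. Both alleles gave -0.96 at 60 h, a level 1.95-fold lower than wild type (adjusted p = 7.00e-06 in csn51 and 8.14e-07 in csn53), and 0.55 and 0.63 at 96 h (adjusted p = 0.0015 and 0.000554). The array of csn51 at 96 h closest to wild type, replicate 1, is one of the 2 with low weight.

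The csn4null values of Hsp60A at 60 h were -0.05, -0.51 and -0.22. They were -0.33, -0.51, -0.32 and -0.12 at 72 h but 1.11, 0.66, 0.99 and 0.77 at 96 h. Only the last age passed the test (0.88, SE 0.16, n = 4, adjusted p = 4.36e-05, 1.84-fold higher). In csn5null at 60 h they were 0.74, 0.53, 0.57, 0.47 and -0.73. They were -0.26, -0.06, -0.90 and 0.01 at 72 h but 0.51, 0.37, 0.47 and 0.32 at 96 h. On 4 of 5 csn5null arrays at 60 h the gene was above wild type, and replicate 5 lay with the csn51 and csn53 arrays of that age. No csn5null group passed the test over all arrays. Without replicate 5, which these values set apart, the 60 h ratio was 0.57 (n = 4, with no test), and without the 3 csn5null arrays the 96 h ratio was 0.42, also given with no test.

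Hsp60B (CG2830) is a relative of Hsp60A that is needed in the male germ line. It was measured on 47 of 51 arrays, and it differed from the other mitochondrial genes at 96 h. At 60 h it was lower in csn51 (-0.86, -1.0015, -0.59 and 0.05, fitted -0.60, adjusted p = 0.016) and in csn53 (-1.06, -1.17, -1.11 and -0.03, fitted -0.84, adjusted p = 0.000807). The csn51 call was lost without replicate 1 or 2 and when arrays were scaled to one spread. At 96 h its ratio was between -0.53 and 0.16 in the 4 genotypes and was called in none. Whether the Hsp60A and Hsp60B array elements detect each other's transcript was not tested, since their sequences were not used here.

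**Figure D2:**
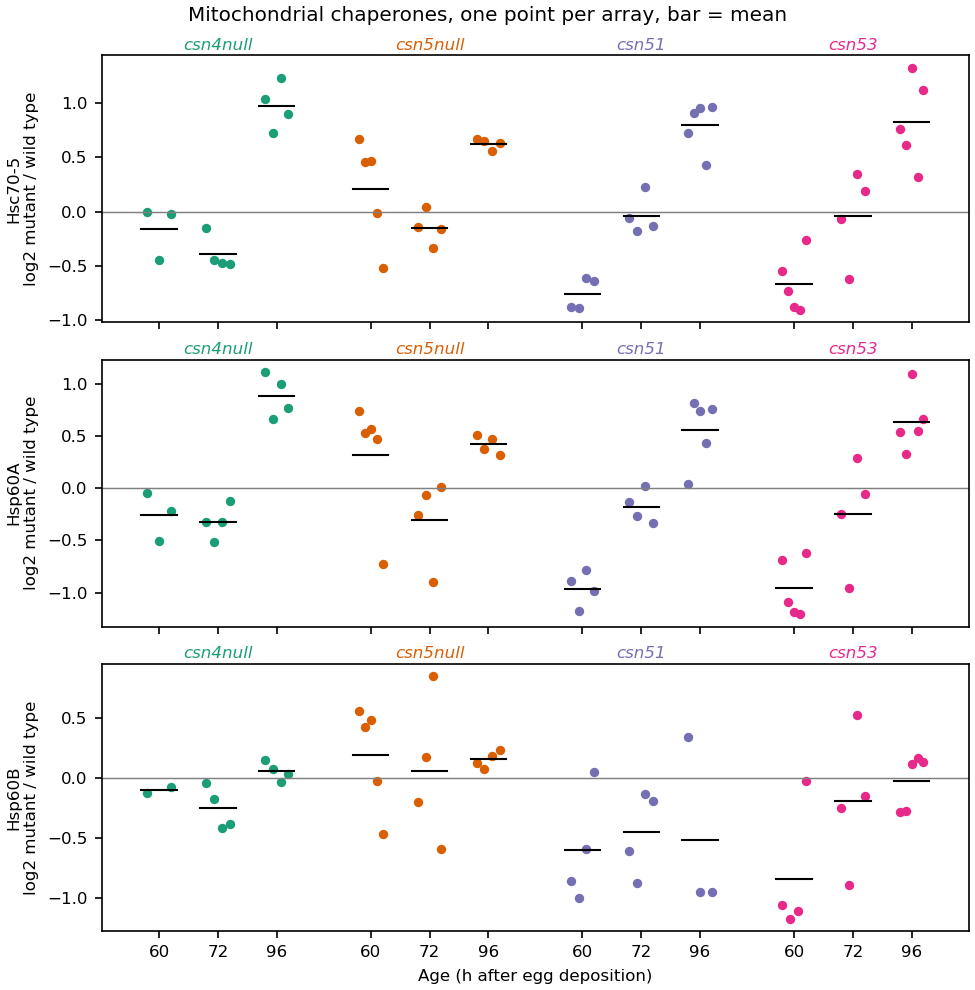
Log2 ratio of mutant over wild type (vertical axes) of Hsc70-5, Hsp60A and Hsp60B on each array, by age in h (horizontal axis) and genotype (colour); points are arrays and bars are group means. For Hsc70-5 and Hsp60A the csn51 and csn53 points lie below 0 at 60 h and above 0 at 96 h, and a single csn5null point at 60 h, at -0.73 for Hsp60A, lies away from the other 4.

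The 6 measured subunits of the CCT chaperonin moved together. In csn51 and csn53 at 60 h all 6 were lower than wild type, with ratios from -0.81 to -0.50 in csn51 and from -0.77 to -0.56 in csn53. Of all features 22.9% were lower in csn51 and 24.9% in csn53 at that age. The array medians of the 6 subunits were -0.71, -0.71, -0.62 and -0.68 in csn51 and -0.59, -0.72, -0.89, -0.80 and -0.51 in csn53. No subunit was called at 72 h in either allele, where the ratios lay between -0.26 and 0.11. The shares of all features at 72 h were 17.6% higher and 16.9% lower in csn51, and 15.8% and 14.2% in csn53. At 96 h 5 of 6 subunits were higher in each allele, with CCT7 the exception in both (0.16 and 0.21). Of all features 27.0% were higher in csn51 and 21.0% in csn53 at 96 h. The array medians at 96 h were 0.07, 0.54, 0.51, 0.29 and 0.52 in csn51 and 0.35, 0.24, 0.73, 0.18 and 0.37 in csn53. In both alleles the medians were thus below 0 on every 60 h array and above 0 on every 96 h array.

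Of the CCT subunits, CCT8 and CCT2 are given array by array. CCT8 (CG8258) gave -0.79, -0.91, -0.66 and -0.87 on the csn51 arrays at 60 h and -0.54, -0.86, -0.84, -0.85 and -0.56 on the csn53 arrays. These fitted to -0.81 (SE 0.10, n = 4, adjusted p = 1.79e-08) and -0.74 (SE 0.09, n = 5, adjusted p = 8.02e-09), which is 1.75-fold and 1.67-fold lower. CCT2 (CG7033) gave -0.84, -0.72, -0.68 and -0.70 in csn51 and -0.67, -0.82, -0.93, -0.88 and -0.56 in csn53 at 60 h. The spread among arrays of one group was thus small beside the distance from wild type. CCT2 at 96 h was 0.70, 0.69, 0.63, 0.34 and 0.60 in csn51 and 0.35, 0.27, 0.74, 0.25 and 0.37 in csn53, with fitted values of 0.60 (adjusted p = 6.79e-07) and 0.40 (adjusted p = 0.00049). Leaving out replicate 3 of csn53 at 96 h ended the call of CCT3 there (0.17, adjusted p = 0.206).

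In csn4null some CCT subunits were called lower at both early ages, 4 of 6 at 60 h (CCT3, CCT5, CCT7 and CCT8) and 3 of 6 at 72 h (CCT2, CCT3 and CCT5). Of all features 8.08% were lower at 60 h and 12.4% at 72 h. CCT5 (CG8439) was at -0.45 at 60 h (adjusted p = 0.00817) and at -0.46 at 72 h (adjusted p = 0.00093). None of the 60 h calls survived the loss of replicate 2 (for CCT5, adjusted p = 0.149 and a ratio of -0.39). At 96 h 4 subunits were higher, CCT2, CCT6, CCT7 and CCT8, where 15.1% of all features were higher. CCT6 (CG8231) had the smallest adjusted p, with 0.62, 0.58, 0.65 and 0.42 on the 4 arrays (fitted 0.57, SE 0.09, adjusted p = 7.48e-06). The CCT7 call (0.27, adjusted p = 0.0468) was lost without replicate 1, 2 or 3.

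In csn5null the median ratio of the 6 subunits was -0.09 at 60 h, -0.23 at 72 h and 0.08 at 96 h. No subunit was called at 60 h, with ratios between -0.14 and -0.06, where 4.54% of all features were higher and 3.39% lower. The array medians there were 0.14, 0.03, 0.08, -0.01 and -0.60, the last being replicate 5. At 72 h CCT3 alone was called (-0.36, adjusted p = 0.0176), a call lost without replicate 1 or 4. Of all features 9.44% were lower at 72 h. Without the 3 csn5null arrays, CCT2, CCT3, CCT5 and CCT6 had ratios between -0.44 and -0.30 at 72 h, given as a description. At 96 h CCT6 alone was higher (0.29, 0.17, 0.25 and 0.37 by array, fitted 0.27, adjusted p = 0.041), and that call was lost without any single array of the group. Of all features 9.47% were higher at 96 h.

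**Figure D3:**
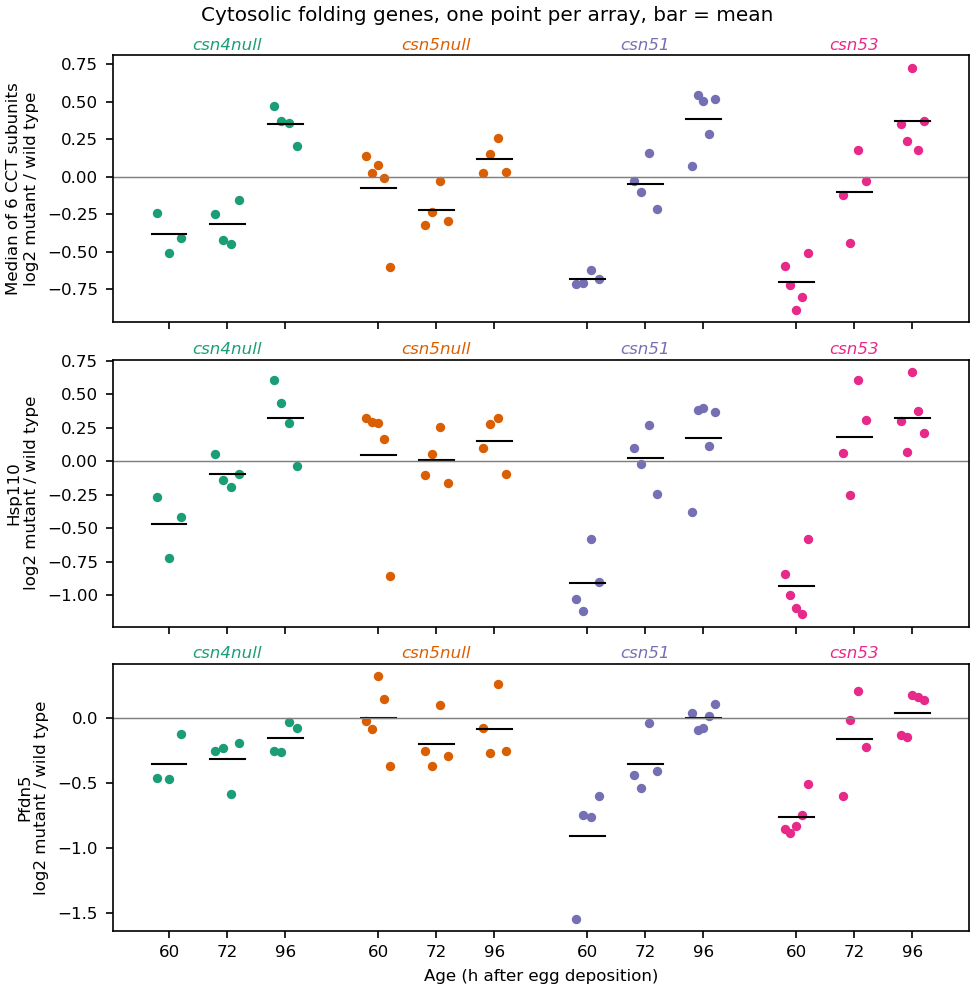
Log2 ratio of mutant over wild type (vertical axes) for the array median of the 6 CCT subunits and for Hsp110 and Pfdn5, by age in h and genotype; points are arrays and bars are group means. The csn51 and csn53 points at 60 h all lie below -0.5 in the 3 panels, and at 96 h the CCT medians lie above 0 while Pfdn5 lies around 0.

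Pfdn5 (CG7048), a prefoldin subunit, was lower at 60 h in csn51 (-1.54, -0.74, -0.76 and -0.60) and csn53 (-0.85, -0.88, -0.83, -0.74 and -0.51). The fits were -0.91 (SE 0.11, adjusted p = 1.16e-08) and -0.78 (SE 0.10, adjusted p = 1.94e-08). Unlike the CCT subunits it was not called at 96 h in any genotype, where its ratio lay between -0.16 and 0.02. It was also lower at 72 h in csn51 (-0.40, adjusted p = 0.00431, lost without replicate 2 with adjusted p = 0.052) and in csn4null (-0.32, adjusted p = 0.0284, lost without replicate 3 or 4).

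Hsp110 (CG6603), a nucleotide exchange factor of cytosolic Hsp70, was at -1.03, -1.12, -0.58 and -0.90 in csn51 and at -0.84, -0.997, -1.09, -1.14 and -0.58 in csn53 at 60 h. These were 1.88-fold and 1.91-fold lower than wild type (adjusted p = 1.66e-06 and 1.01e-07). It was lower in csn4null at 60 h too (-0.47, adjusted p = 0.0415), a call lost without any of the 3 arrays. At 96 h it was higher only in csn53 by the test (0.32, adjusted p = 0.0391), and that call was lost without replicate 1, 3, 4 or 5.

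The small heat shock gene Hsp26 (CG4183) had the widest range of the 18 genes. In csn51 at 60 h it was at 2.66, 0.19, 3.41 and 1.45, fitted 1.93 (SE 0.42, n = 4, adjusted p = 0.000227, 3.80-fold higher). In csn53 at 60 h it was at -0.09, 0.29, 0.74, -0.73 and 0.43, around wild type. The csn51 and csn53 arrays overlapped, and their difference at 60 h was not called. At 72 h Hsp26 was lower in csn5null (-2.11, -1.55, -0.56 and -1.98, fitted -1.55, adjusted p = 0.00814) and in csn53 (-1.14, -1.74, -1.21 and -1.20, fitted -1.32, adjusted p = 0.0146). The csn5null call was lost without replicate 1 or 4 and the csn53 call without replicate 2. At 96 h it was higher in csn4null (1.79, 0.63, 2.28 and 2.08), csn51 (0.31, 1.99, 1.71, 2.01 and 2.47) and csn53 (0.16, 2.25, 1.53, 1.97 and 1.49). The fitted values were 1.69, 1.70 and 1.48, or 3.23-fold, 3.25-fold and 2.79-fold higher (adjusted p = 0.00162, 0.000196 and 0.00149). In csn5null it was at 1.16, 1.34, 0.15 and 0.63, above 0 on all 4 arrays but not called (0.82).

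Hsp27 (CG4466), a neighbour of Hsp26 in the small heat shock gene cluster, was higher in no group. It was lower at 72 h in csn51 (-1.03, -2.07, -1.04 and -0.19, fitted -1.09, adjusted p = 0.00495) and csn53 (-1.01, -1.33, -0.63 and -0.95, fitted -0.98, adjusted p = 0.0121). Both calls were lost without replicate 2 of the group (adjusted p = 0.0972 and 0.0682). At 96 h, where Hsp26 was higher, Hsp27 was lower in csn51 (-1.41, -0.42, -1.34, -0.73 and -0.41, fitted -0.86, adjusted p = 0.00705). That call was not made without the 2 csn51 arrays of low weight. In csn53 at 60 h the ratio was -0.66 (adjusted p = 0.0426), a call lost without replicate 1, 2 or 4.

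DnaJ-1 (CG10578), a heat-inducible Hsp40, spread widely between arrays of one group. On the csn5null arrays at 60 h it was at 2.15, 0.60, 1.70, 0.54 and -1.72, and without the last of these the ratio was 1.25. It was called over all arrays in 2 groups, csn53 at 72 h (-1.07, -1.82, -1.16 and -0.23, fitted -1.07, adjusted p = 0.0357) and csn51 at 96 h (1.02, 1.80, 0.23, 0.74 and 0.48, fitted 0.88, adjusted p = 0.0333). Each was lost without any of 3 single arrays: replicates 1, 2 and 3 of csn53, and replicates 1, 2 and 4 of csn51.

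**Figure D4:**
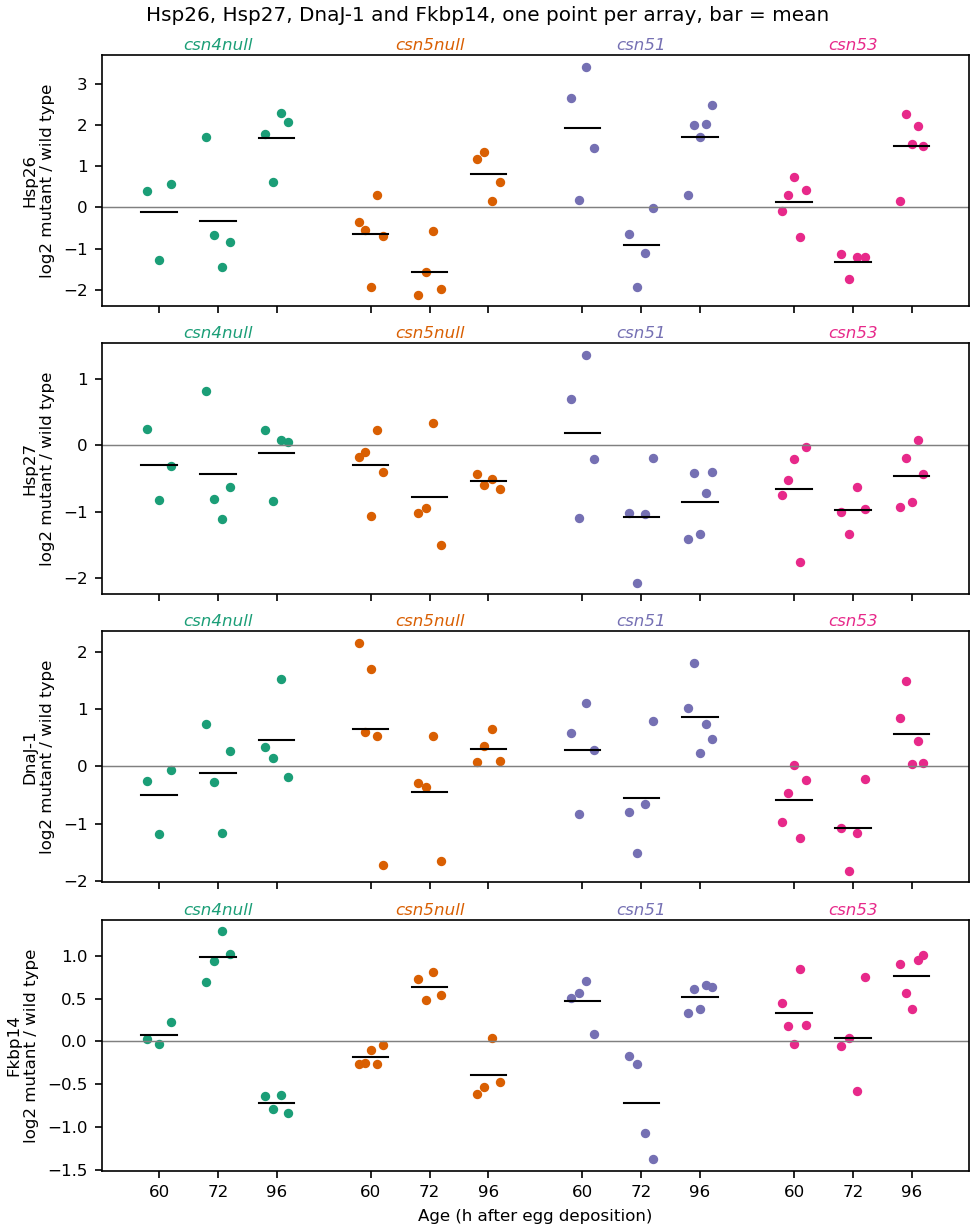
Log2 ratio of mutant over wild type (vertical axes, each with its own range) of Hsp26, Hsp27, DnaJ-1 and Fkbp14 on each array, by age in h and genotype; points are arrays and bars are group means. Hsp26 points at 96 h all lie above 0, Hsp27 points of csn51 at 72 and 96 h all lie below 0, DnaJ-1 spreads from 2.15 to -1.72 in csn5null at 60 h, and Fkbp14 changes side between 72 and 96 h in the csn4null and csn51 larvae, in opposite directions.

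Fkbp14 (CG9847), a prolyl isomerase of the endoplasmic reticulum with a role in Notch signalling, followed a course of its own. In csn4null it was at 0.03, -0.03 and 0.22 at 60 h, at 0.70, 0.94, 1.28 and 1.02 at 72 h and at -0.64, -0.78, -0.62 and -0.83 at 96 h. The 3 ages did not overlap, and the last 2 were called (0.98, adjusted p = 2.54e-06, and -0.72, adjusted p = 0.000248). In csn5null it was again higher at 72 h (0.73, 0.48, 0.81 and 0.55, fitted 0.64, adjusted p = 0.00259). At 96 h csn5null had -0.62, -0.53, 0.05 and -0.47, which was not called over all 4 arrays (-0.39). Without the 3 csn5null arrays the ratio was -0.54, given as a description.

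In csn51 the order of signs was the reverse for Fkbp14. It was higher at 60 h (0.51, 0.57, 0.71 and 0.08, fitted 0.47, adjusted p = 0.0104), lower at 72 h (-0.17, -0.26, -1.07 and -1.38, fitted -0.73, adjusted p = 0.000207) and higher at 96 h (0.34, 0.62, 0.37, 0.66 and 0.63, fitted 0.52, adjusted p = 0.00127). In csn53 at 72 h the arrays lay on both sides of wild type (-0.06, 0.04, -0.57 and 0.76, fitted 0.04, not called). In csn53 it was higher at 60 h (0.32, adjusted p = 0.0444) and at 96 h (0.90, 0.57, 0.38, 0.95 and 1.01, fitted 0.76, adjusted p = 1.50e-05). The 60 h calls were weak, that of csn51 being lost without replicate 2 or 3 and that of csn53 without replicate 1, 2 or 4. Fkbp14 is the single gene of the 18 with 2 array entries, which were averaged. Their means lay farthest apart in csn51 at 96 h, at 0.29 and 0.75, and had the same sign in all groups but csn53 at 72 h. With each entry tested on its own, the csn51 call at 96 h did not hold for both (larger adjusted p = 0.0774). The csn53 call at 60 h was lost in the same way (0.258).

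Fkbp39 (CG6226), a nuclear FKBP that in flies has been linked to the control of autophagy, was lower at 60 h in csn51 (-1.01, -1.15, -0.97 and -0.75, fitted -0.97, adjusted p = 0.000253) and csn53 (-0.91, -1.03, -1.03, -1.25 and -0.47, fitted -0.94, adjusted p = 7.71e-05). At 72 h it was lower in the nulls instead: -0.83, -0.85, -1.15 and -0.77 in csn4null (fitted -0.90, adjusted p = 0.00135) and -1.16, -1.11, -0.23 and -1.13 in csn5null (fitted -0.91, adjusted p = 0.0025). In csn5null it was still lower at 96 h (-0.80, -1.01, 0.09 and -1.0011, fitted -0.68, adjusted p = 0.0216), a call lost without replicate 1, 2 or 4. In csn51 it was higher at 96 h (0.59, adjusted p = 0.00884). The csn4null arrays at 96 h gave 2.13, -0.16, -0.02 and 0.02, a spread that left the group uncalled.

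Fkbp59 (CG4535), an Hsp90 co-chaperone, was lower at 60 h in csn4null (-0.38, -0.50 and -0.40, fitted -0.43, adjusted p = 0.00618), in csn51 (-0.62, adjusted p = 1.26e-06) and in csn53 (-0.51, adjusted p = 4.17e-06). The csn4null call was lost without replicate 2 (adjusted p = 0.112). In csn5null at 60 h it was at 0.29, 0.26, 0.34, 0.34 and -0.14, and at 0.31 without the last of these. At 72 h it was higher in csn53 (0.19, 0.37, 0.42 and 0.36, fitted 0.33, adjusted p = 0.00651). At the same age it was lower in csn5null (-0.33, adjusted p = 0.0139), which rested on replicate 3 at -0.90; without that array the ratio was -0.13 and was not called.

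DnaJ-60 (CG42567), a J-domain protein, went against most of the list at 60 h. It was higher there in csn51 (1.08, 0.99, 0.46 and 0.90, fitted 0.86, adjusted p = 1.02e-05) and in csn53 (1.12, 0.90, 0.95, 1.26 and 0.51, fitted 0.95, adjusted p = 2.03e-07). At 72 h it was higher in csn51 (0.85, 0.69, 0.52 and 0.76, fitted 0.71, adjusted p = 0.000242). At 96 h it was higher in all 4 genotypes, at 0.55 in csn4null, 0.43 in csn5null, 0.45 in csn51 and 0.36 in csn53. The csn5null call (adjusted p = 0.0412) was lost without replicate 1, 2 or 4, and the csn53 call (adjusted p = 0.0275) without replicate 1, 2, 3 or 5.

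The 4 mutants were then set against each other within the same fit. Few calls separated the 2 CSN5 alleles. No chaperone gene differed between csn51 and csn53 at 60 h (0.194% of features called by limma, 2 of the 18 genes at an unadjusted p under 0.05) or at 96 h (4.08%, none of the 18 at an unadjusted p under 0.05). At 72 h Fkbp14 differed (-0.77, SE 0.22, adjusted p = 0.0343, with 3.64% of features called). That call was lost without replicate 3 or 4 of csn51 or replicate 2 or 4 of csn53, at adjusted p from 0.0618 to 0.264. For Hsc70-5 the csn51 minus csn53 difference was -0.09 at 60 h (95% interval -0.47 to 0.30), and for Hsp60A it was 0.0005 (-0.44 to 0.45). Differences within these intervals are not excluded, and the test adjusted over all features can also miss larger ones. For Hsp26 it was 1.80 at 60 h (95% interval 0.65 to 2.94), uncalled after adjustment over all features (adjusted p = 0.859).

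The csn4null and csn5null larvae differed in Fkbp59 at 60 h (-0.64, SE 0.14, adjusted p = 0.0024), in no gene at 72 h (10.6% of features called by limma, 1 of the 18 genes at an unadjusted p under 0.05) and in Fkbp39 at 96 h (1.17, SE 0.30, adjusted p = 0.0151). The background was 9.92% of features at 60 h and 4.91% at 96 h. The Fkbp39 difference was lost without replicate 1 of csn4null, the array at 2.13, and without replicate 2 or 4 of csn5null. Without the 2 csn5null arrays whose CSN5 ratio goes against their labels, no gene differed at 72 h and Fkbp39 differed at 96 h by 1.44 (adjusted p = 0.00165). Without replicate 5 of csn5null the differences at 60 h were -0.55 for Hsc70-5, -0.82 for Hsp60A and -0.73 for Hsp110, given as a description.

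The csn5null larvae differed widely from the CSN5 alleles at 60 h. Against the mean of csn51 and csn53, 12 of the 18 genes were higher and 3 lower in csn5null, where 21.4% of features were higher and 22.4% lower. The 12 were Hsc70-5, Hsp60A, Hsp60B, the 6 CCT subunits, Pfdn5, Hsp110 and Fkbp59, and the 3 were DnaJ-60, Fkbp14 and Hsp26. Fkbp59 (0.78, SE 0.11, adjusted p = 2.04e-07) and Hsp60A (1.27, SE 0.18, adjusted p = 5.41e-07) had the smallest adjusted p. Without replicate 5 these differences were 0.87 for Fkbp59 and 1.54 for Hsp60A.

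Fewer genes separated csn5null from the alleles later. At 72 h Fkbp14 was higher (0.99, SE 0.19, adjusted p = 7.06e-05) and CCT6, Fkbp39 and Fkbp59 (-0.50, SE 0.12, adjusted p = 0.000919) lower, against 15.2% and 16.3% of features. Without replicate 3 of csn5null at 72 h the Fkbp59 difference was -0.30 (adjusted p = 0.032) and CCT3 was also lower. The CCT6 difference (-0.31, adjusted p = 0.0373) was lost without any of 8 single arrays. At 96 h CCT5, Fkbp14 (-1.03, SE 0.18, adjusted p = 2.03e-05) and Fkbp39 (-1.06, SE 0.25, adjusted p = 0.00121) were lower and none was higher (14.5% and 16.0%). CCT5 (-0.41, adjusted p = 0.00981) was lost without replicate 4 of csn5null at 96 h. Hsc70-5 and Hsp60A, which had differed at 60 h, were not among the genes called at 72 or 96 h.

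The change with age was tested as the ratio at 96 h minus that at 60 h. In csn53, 14 of the 18 genes had risen relative to wild type and 1 had fallen, in csn51 12 and 1, and in csn4null 10 and 1. The share of features was 15.4% higher and 15.9% lower in csn53, 17.2% and 20.7% in csn51, and 5.74% and 6.70% in csn4null. In csn5null no gene was called (3.70% and 3.67% of features by limma, 4 of the 18 genes at an unadjusted p under 0.05). Whether the change with age differed between genotypes was not tested as such.

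The 6 CCT subunits, Hsc70-5, Hsp60A, Hsp110 and Fkbp39 rose in csn4null, in csn51 and in csn53. The smallest adjusted p were those of CCT2 in csn51 (1.34, SE 0.14, adjusted p = 8.83e-10) and CCT8 in csn53 (1.15, SE 0.13, adjusted p = 3.13e-09). CCT8 in csn51 was at 1.16 (adjusted p = 6.12e-09) and CCT2 in csn53 at 1.17 (adjusted p = 5.08e-09). In csn4null they were CCT6 (0.79, SE 0.14, adjusted p = 0.000207) and Hsc70-5 (1.13, SE 0.22, adjusted p = 0.000395). Hsc70-5 and Hsp60A rose by 1.55 and 1.52 in csn51 and by 1.49 and 1.59 in csn53. In csn5null their changes were 0.41 (95% interval 0.03 to 0.80) and 0.11 (-0.34 to 0.55). Without replicate 5 at 60 h they were 0.23 and -0.15, given as a description, so that of Hsp60A turned its direction.

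The falling genes differed by genotype: Fkbp14 in csn4null (-0.80, adjusted p = 0.0185), Hsp27 in csn51 (-1.05, adjusted p = 0.0394) and DnaJ-60 in csn53 (-0.59, adjusted p = 0.0149). Each of these was lost without some single arrays, 1 for Fkbp14, 4 for Hsp27 and 2 for DnaJ-60. Pfdn5 and Fkbp59 rose in both alleles. Hsp26 and Hsp60B were called in csn53 (1.35 and 0.81), the Hsp26 call being lost with scaled arrays and without any of 8 single arrays and the Hsp60B call without any of 3. The uncalled Hsp26 changes were 1.80 in csn4null, 1.47 in csn5null and -0.23 in csn51, and whether they differ from that of csn53 was not tested. In csn4null the rises of CCT3 and Hsp110 were lost without replicate 1 at 96 h or replicate 2 at 60 h, and that of Fkbp39 (1.02, adjusted p = 0.0353) without replicate 1 at 96 h or any array at 60 h.

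**Figure D5:**
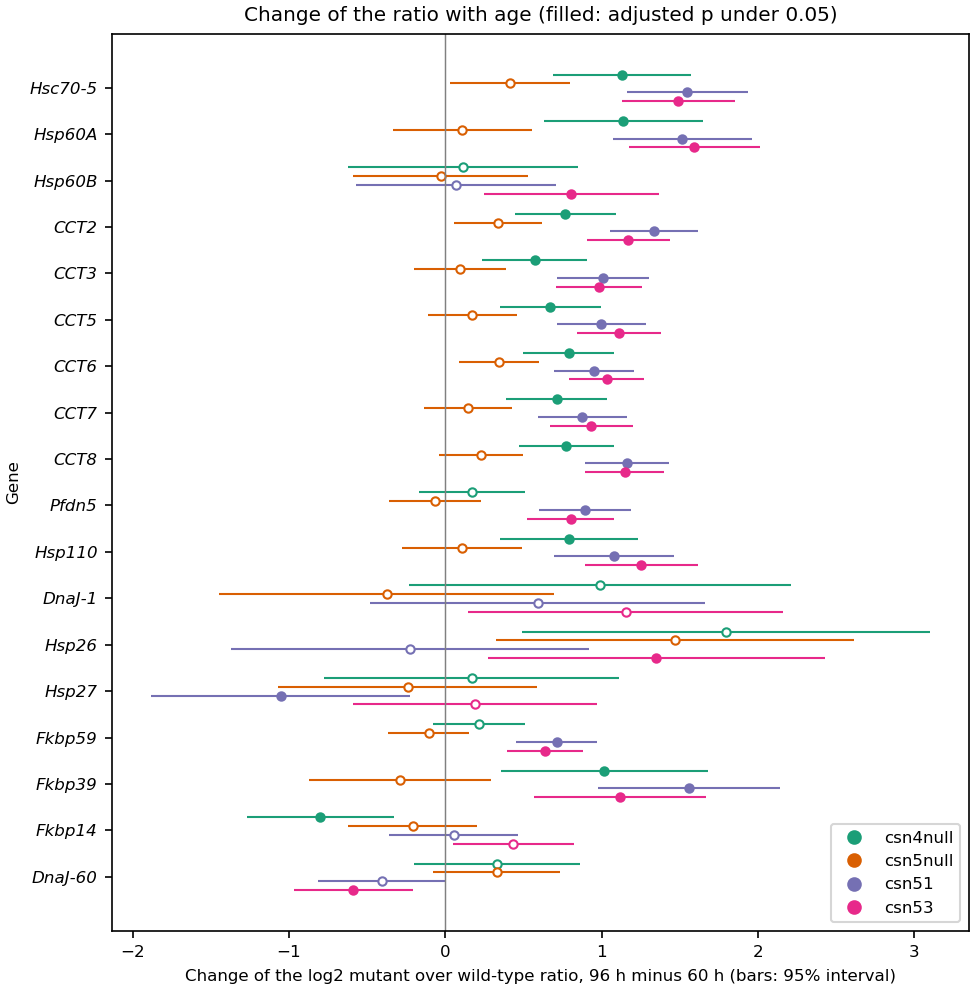
Change of the log2 mutant over wild-type ratio between 60 and 96 h (horizontal axis, 96 h minus 60 h) for the 18 genes (vertical axis) in each genotype (colour); bars are 95% intervals and filled points have an adjusted p under 0.05. For the CCT subunits, Hsc70-5 and Hsp60A the csn4null, csn51 and csn53 points lie right of 0, from 0.57 to 1.59, and no csn5null point is filled.

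Genes of the mitochondrial import and folding machinery outside the name rule were counted beside the 18. Of 6 measured genes of the import list, 5 were lower at 60 h and 5 higher at 96 h in csn51, with the same counts in csn53. At 60 h 22.9% of all features were lower in csn51 and 24.9% in csn53. At 96 h 27.0% of features were higher in csn51 and 21.0% in csn53. Tom40, the import pore, was at -0.69 and 0.95 in csn51, and mge, the Tom22 receptor, at -0.76 and 0.73. The gene mge was moved to this list after its values were seen, so the counts of the list include a gene placed with its values known. The gene ttm50, a subunit of the inner membrane translocase, was at -0.55 and 0.63. The exception at 60 h was Tspo, at 0.82 in csn51 and 0.85 in csn53. It is an outer membrane protein on the list that is not a subunit of the protein import machinery. In csn4null 1 was lower at 60 h, 5 were lower at 72 h (Tom40 at -0.65) and 4 higher at 96 h. The matching shares of all features were 8.08%, 12.4% and 15.1%. In csn5null none was called at 60 h, where 3.39% of features were lower and 4.54% higher. Tom40 (-0.42) and Tim10 (-0.38) were lower there at 72 h (9.44% of features), and Tspo was higher at 96 h (1.37, with 9.47% of features). The median ratio of the 6 genes in csn5null at 96 h was -0.14.

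Of 10 measured mitochondrial proteases and co-chaperones, 5 were lower and 1 higher at 60 h in csn51 (22.9% and 24.1% of all features). In csn53 5 were lower and 3 higher (24.9% and 25.3%). At 96 h, 6 were higher and none lower in each allele. The shares of features were 27.0% and 28.1% in csn51 and 21.0% and 19.5% in csn53. Trap1, the mitochondrial Hsp90, was at -0.51 and -0.41 at 60 h and at 1.00 and 0.69 at 96 h, and the prohibitin Phb1 was at -0.73 at 60 h and 0.75 at 96 h in csn51. In csn4null 3 were lower at 60 h, 4 lower at 72 h (Trap1 at -0.71) and 4 higher at 96 h. The matching shares of features were 8.08%, 12.4% and 15.1%. The protease subunit ClpX was higher at 96 h in all 4 genotypes, from 0.38 in csn53 to 0.78 in csn4null. In csn5null none of the 10 was called at 60 h (3.39% of features lower and 4.54% higher) and 1 was lower at 72 h (9.44%). At 96 h 3 were higher and none lower (9.47% and 7.79%), among them Lon, the matrix protease, at 0.39 and ClpX at 0.65.

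The cytosolic co-chaperones were called in both directions. Of 13 measured, 5 were lower and 2 higher at 60 h in csn51 (22.9% and 24.1% of all features) and 7 lower and 2 higher in csn53 (24.9% and 25.3%). At 96 h, 3 were lower and 1 higher in csn51 (28.1% and 27.0% of all features), 5 lower and 2 higher in csn53 (19.5% and 21.0%), 3 and 3 in csn4null (16.3% and 15.1%), and 4 and 2 in csn5null (7.79% and 9.47%). Cyp1, a cyclophilin, was lower in csn51 at all 3 ages (-0.71, -0.42 and -0.49), and Sgt, a co-chaperone with tetratricopeptide repeats, was at -0.62 and -0.53 in csn51 and csn53 at 60 h. The small heat shock gene l(2)efl, which the prefixes miss, was higher at 60 h and lower at 96 h in csn4null (0.52 and -0.75), csn51 (0.36 and -1.31) and csn53 (0.49 and -1.20), the reverse of the CCT subunits. In csn5null none was called at 60 h (3.39% of features lower and 4.54% higher). The Hsp90 co-chaperones p23 (-0.55) and Tpr2 (-0.50) were lower there at 72 h (9.44% of features). Hsf, the heat shock transcription factor, was called only in csn4null at 72 h (0.36).

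Genes of protein folding in the endoplasmic reticulum were mostly lower at 60 h and at 96 h in csn51. Of 19 measured, 11 were lower and 2 higher in csn51 at 60 h (22.9% and 24.1% of all features). At 96 h 13 were lower and 2 higher (28.1% and 27.0%). In csn53 12 were lower and 3 higher at 60 h (24.9% and 25.3% of features). There were 10 higher and 1 lower at 72 h (15.8% and 14.2%), and 6 lower and 2 higher at 96 h (19.5% and 21.0%). In csn4null the counts at the 3 ages were 6 lower and 1 higher, 1 lower and 5 higher, and 13 lower and 1 higher. The shares of features were 8.08% and 9.77%, 12.4% and 12.6%, and 16.3% and 15.1%. Gp93, the Hsp90 of that compartment, was at -1.14 and -1.19 in csn51 at 60 and 96 h, and ERp60, a disulfide isomerase, at -0.64 and -0.88 in csn4null. The transcription factor gene crc, the fly ATF4, was higher in all 9 groups of csn4null, csn51 and csn53, between 0.55 and 0.87. In csn5null the list gave no call at 60 h (4.54% of features higher and 3.39% lower) and 2 higher at 72 h (8.32%). At 96 h it gave 2 higher and 2 lower (9.47% and 7.79%), with Ero1L at 0.99.

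Markers of larval tissues were read in the same groups. Fbp2, the measured gene of the 6 on the fat body list, was at -0.02 in csn51 and csn53 at 60 h, and at 96 h it was at -7.61 in csn4null, -5.49 in csn5null, -8.10 in csn51 and -8.50 in csn53. Of 8 haemocyte genes 5 were measured. At 60 h none was lower, and 3 were higher in csn51 (24.1% of all features), 3 in csn53 (25.3%), 2 in csn5null (4.54%) and 1 in csn4null (9.77%). At 96 h 4 were lower and 1 higher in csn51 (28.1% and 27.0%), and 2 lower and 1 higher in csn53 (19.5% and 21.0%). In csn5null 3 were lower and none higher at 96 h (7.79% and 9.47%), and in csn4null 3 lower and 1 higher (16.3% and 15.1%). The gene higher at 96 h was the collagen gene Col4a1, at 1.05 in csn4null, 0.68 in csn51 and 0.70 in csn53. The haemocyte ratios spanned -0.17 to 1.59 in csn51 at 60 h and -2.17 to 0.68 at 96 h, with the prophenoloxidase gene PPO1 at -2.17. Muscle was represented by 2 of 9 genes, Mlc2 and up, which were at -0.65 and -0.57 in csn51 at 96 h and at 0.41 and -0.08 at 60 h. Both were lower at 96 h in csn51 and in csn53 (-0.46 to -0.40 there). In csn4null 1 of the 2 was higher at 96 h (0.04 to 0.34), and in csn5null neither was called (-0.01 to 0.03). At 60 h 1 was higher in each of csn4null, csn51 and csn53. The shares of all features are those given with the haemocyte genes. Of 8 midgut genes 4 were measured, and at 96 h 2 were lower and 1 higher in each null and 3 lower and none higher in each allele. The shares of all features at 96 h are those given with the haemocyte genes. The amylase-related gene Amyrel was at 3.78 in csn4null and 2.15 in csn5null at 96 h, and the maltase gene Mal-A5 at -2.16, -1.59, -2.08 and -1.73 in csn4null, csn5null, csn51 and csn53. Of 6 neuronal genes 3 were measured, and none was lower at 60 or 96 h. At 60 h 1 was higher in csn51, 1 in csn53 and none in the nulls. At 96 h 1 was higher in csn4null, 1 in csn51, 2 in csn53 and none in csn5null. The shares of all features are again those given with the haemocyte genes. In csn51 nSyb was at 0.42 at 60 h and 0.61 at 96 h. No gene of the gonad list was measured. The part of these tissue markers in the chaperone ratios was not tested.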

How the data were processed

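Whole-larva total RNA of 4 CSN mutants and of age-matched wild type was hybridised to 51 two-colour arrays, with dye reversals (mutant in Cy3 on 23 and in Cy5 on 28). The deposited table holds 1 log ratio per entry and array, taken here as log2; the background correction and normalisation behind these values are not given in the sources used here. Array medians lay between -0.027 and 0.016 and 5805 to 6593 values were present per array; spot intensities were not used, so background and saturation could not be checked, and precision is limited by how many arrays a group has. Within groups, 53 array pairs had opposite dyes; over all entries r exceeded 0.4 in 47 of them and was under 0.2 in 6, so the deposited ratios were taken as already turned one way.

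Symbols came from the platform annotation (5072 entries with 1 symbol, 176 with several, 1373 with none), of which 4993 matched RefSeq gene identifiers and none changed its symbol; an entry with several symbols was named for none, which leaves out 1 entry with a prefix of the rule. Control entries (32) and entries without a value (28) were dropped, and entries of a gene were averaged. No array or genome sequence was used, so no coordinates are given.

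Ratios were fitted with limma 3.58.1 in R 4.3.3 (lmFit and eBayes): 12 group coefficients and the mutant's dye over all 51 arrays, for features with at least 2 arrays in the group. Missing values were not imputed. The Benjamini-Hochberg adjustment ran over all features of a comparison at 0.05, and intervals are 95%. Contrasts of genotypes and ages came from the same fit. P-values measure the spread between arrays, called biological replicates on all descriptions but one. If arrays of a group shared 1 wild-type extract, this spread leaves out the variation between wild-type extracts. The named genes are Hsc70-5 and Hsp60A, up to 3 members per group by adjusted p with 1 sign on every array, up to 2 per difference, every other called member, and up to 3 called genes per genotype of the other lists. The members, lists and tests were chosen with earlier results of these data known. The gene mge was moved from the co-chaperone to the import list after its values were seen, to match its function.

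Equal replicate numbers did not mark pairs: of 18 pairs of genotypes at an age, none had every correlation of same-numbered residuals above 0.1. Alternatives were fits without the dye term, on a group's own arrays, with centred or scaled arrays, on features with a value on every array, with entries apart, with array weights (limma), with a replicate block (statmod 1.5.0), without single arrays and without the 2 or 3 csn5null arrays that stood apart; leaving out 2 csn51 arrays of low weight was added after seeing the data.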

Additional observations from a re-analysis of the deposited data

Results flagged for a closer look

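Every chaperone gene and group with 4 or 5 arrays was searched for an array that lay far from the rest of its group, 197 pairs in all, of which 19 held one; about 5% are flagged by chance. Of these, 6 were on replicate 5 of csn5null at 60 h, where Hsp60A was at -0.726 (the other 4 arrays 0.466 to 0.737), Hsp110 at -0.853 (0.165 to 0.322), CCT2 at -0.737 (0.026 to 0.158), CCT3 at -0.576 (0.014 to 0.18), Fkbp39 at -1.11 (-0.361 to -0.096) and Fkbp59 at -0.139 (0.257 to 0.345). Replicate 3 of csn5null at 72 h, whose CSN5 ratio goes against its label, held CCT2 at -0.008 (others -0.395 to -0.333) and Fkbp39 at -0.23 (others -1.162 to -1.112).

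In csn4null, Fkbp39 at 96 h was at 2.133 on replicate 1 (others -0.164 to 0.024) and Hsp27 at -0.847 on replicate 2 (0.048 to 0.224). At 72 h Hsc70-5 was at -0.151 on replicate 1 (-0.483 to -0.446) and Pfdn5 at -0.581 on replicate 3 (-0.253 to -0.196). In csn51, Pfdn5 at 60 h was at -1.543 on replicate 1 (-0.758 to -0.598) and CCT2 at 96 h at 0.338 on replicate 4 (0.603 to 0.701). In csn53, Hsp60B at 60 h was at -0.028 on replicate 5 (-1.174 to -1.056). At 72 h replicate 2 held CCT6 at -0.441 (0.13 to 0.235) and Hsp26 at -1.735 (-1.21 to -1.135). At 96 h CCT2 was at 0.74 on replicate 3 (0.253 to 0.373) and DnaJ-60 at -0.239 on replicate 4 (0.468 to 0.608).

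Differences between mutants or ages that passed the test were the other reason for a closer look, by the log2 difference and up to 2 genes per comparison. Between csn4null and csn5null Fkbp59 differed by -0.645 at 60 h and Fkbp39 by 1.173 at 96 h. Between csn5null and the mean of the 2 alleles the differences were 0.783 for Fkbp59 and 1.274 for Hsp60A at 60 h, 0.985 for Fkbp14 and -0.505 for Fkbp59 at 72 h, and -1.034 for Fkbp14 and -1.063 for Fkbp39 at 96 h. Between csn51 and csn53 Fkbp14 differed by -0.771 at 72 h. From 60 to 96 h the ratio changed by 0.789 for CCT6 and 1.13 for Hsc70-5 in csn4null, by 1.335 for CCT2 and 1.163 for CCT8 in csn51, and by 1.17 for CCT2 and 1.148 for CCT8 in csn53.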

How the results depend on the processing

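Of the 95 calls in the 12 groups none changed its sign under any alternative, and 67 remained when any single array of their group was left out. Dropping the dye term, centring the arrays and adding a replicate block changed none of the 95 calls in groups or the 64 in differences; the replicate block had a consensus correlation of 0.00449, and residuals of same-numbered arrays correlated between -0.563 and 0.615. Over the 12 groups the calls numbered 76 on a group's own arrays, 98 with scaled arrays, 86 on features with a value on every array, 93 with entries apart, 127 with array weights, 103 without the 2 csn5null arrays with CSN5 near 0, 113 without these and replicate 5 at 60 h, and 99 without 2 csn51 arrays.

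Counts of chaperone genes called moved by over 1.5 times as follows. On a group's own arrays they were 0 in csn4null at 60 h (6 in the fit reported), 0 in csn5null at 72 h (5), 1 in csn5null at 96 h (4) and 2 in csn51 at 72 h (4), and 1 of 2 for csn4null against csn5null and 0 of 1 for csn51 against csn53, over the 3 ages. With scaled arrays they were 5 in csn5null at 60 h (0), 9 in csn5null at 72 h and 6 for csn4null against csn5null. With array weights they were 7, 10 and 7 in csn5null at 60, 72 and 96 h, 7 in csn51 at 72 h, 7 in csn53 at 72 h, 12 for csn4null against csn5null and 2 for csn51 against csn53. Entries apart gave 0 for csn51 against csn53. Without 2 csn5null arrays csn5null at 60 h had 1, and without 3 it had 4, 8 and 7 at the 3 ages, with 11 for csn4null against csn5null and 2 for csn51 against csn53. Leaving out single arrays gave 0 to 5 in csn4null at 60 h, 0 to 4 in csn5null at 60 h, 3 to 8 in csn5null at 72 h, 1 to 5 in csn5null at 96 h, 2 to 4 in csn51 at 72 h, 1 to 5 in csn53 at 72 h, 1 to 10 for csn4null against csn5null and 0 to 1 for csn51 against csn53. Replicate 5 of csn5null at 60 h was set apart by the values counted, so the counts without it, at 72 and 96 h too, are conditioned on the outcome. Fewer arrays enter the fits on own arrays and without arrays; for the others the cause was not tested.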
